A study of Mus musculus with 8 samples.

Results

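Nuclear receptors are transcription factors whose activity is set by small lipid-like ligands, and the genes examined here are receptors of this family other than RORγt. The set was given as a list of 10 symbols: Rora, Vdr, Rara, Rarg, Rxra, Nr1h2, Nr1h3, Nr3c1, Pparg and Ppard. All probe sets named for 1 of these symbols alone were taken, which gave 27 probe sets of 9 genes, out of 45037 probe sets and 18193 genes on the array. Nr1h2 had no such probe set, so its expression was not analysed here, and it enters only the promoter counts. The list was drawn up with earlier results of these data known, so measured values may have shaped which genes it holds. Given the list, the 27 probe sets were taken by annotation, whatever their values. Which probe set leads a gene was set first by its range of array level, recovered from the values as described below.

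Gene expression had been measured with 8 Affymetrix Mouse Genome 430 2.0 arrays hybridised with total RNA from CD4 T cells grown in culture. Naive cells of the C57BL/6 strain had been sorted, stimulated through CD3 and CD28, and kept for 48 h under conditions that drive Th17 differentiation, all groups alike. The 4 groups were RORγt-deficient cells with digoxin, RORγt-deficient cells with the solvent DMSO, wildtype cells with digoxin, and wildtype cells with DMSO, with 2 arrays each. Digoxin is a cardiac glycoside, and the series asks how it compares with loss of RORγt. The sources used here give neither the dose, nor the allele that removes RORγt, nor the age of the mice. Arrays of a group are labelled biological replicates, but whether each stands for its own mouse or culture is not stated, so every p-value reflects the spread between arrays, which may be technical in part. No level of the RORγt transcript was analysed here, and the genotypes are taken from the labels alone.

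The receptors of the set sit at different places in one regulatory family. RORα, encoded by Rora, is the close relative of RORγt, binds the same DNA element and takes part in Th17 differentiation. The vitamin D receptor (Vdr), the retinoic acid receptors (Rara, Rarg), the liver X receptor LXRα (Nr1h3) and the peroxisome proliferator-activated receptors (Pparg, Ppard) bind DNA as partners of the retinoid X receptor RXRα (Rxra). The glucocorticoid receptor (Nr3c1) binds glucocorticoid hormones and acts mainly as a homodimer or through other factors. In mouse T cells, vitamin D, retinoic acid, LXR ligands and PPARγ ligands are known to restrain Th17 differentiation.

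The deposited numbers are log2 values relative to the mean of the 2 wildtype DMSO arrays of the same probe set, so these 2 arrays always carry equal values of opposite sign and no absolute level can be read from them. The numerical precision of the values still gave the range in which the lowest array level of a probe set had lain. That level was 8 to 16 for 18.7% of probe sets, 4 to 8 for 47.6% and 2 to 4 for 33.6%. All 7 measured T cell markers lay in the highest range, and none of the 2 CD8 T cell, 3 natural killer cell, 3 B cell and 8 myeloid markers did. Array medians lay between -0.00463 and 0.0248, and the first principal component held 39% of the variance. Its scores were 7.37 and 28.3 in RORγt-deficient digoxin cells and -8.5 and 23.4 in RORγt-deficient DMSO cells. They were -17.6 and 17 in wildtype digoxin cells and -19.7 and -30.2 in wildtype DMSO cells, so the second array stood well above the first in each group but the last.

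The promoters of 3 genes on which the results turn are shown as the 250 bases before the start of transcription, in the 5′ to 3′ direction of the gene (RefSeq, GRCm38.p6). Vdr is the receptor of the set with the lowest group means, Nr1d2 is the nuclear receptor outside the set that passed the test, and Rora is the relative of RORγt. Capitals mark AGGTCA, the half-site that many nuclear receptors bind, searched on both strands.
Vdr, chr15:97908297-97908546, minus strand: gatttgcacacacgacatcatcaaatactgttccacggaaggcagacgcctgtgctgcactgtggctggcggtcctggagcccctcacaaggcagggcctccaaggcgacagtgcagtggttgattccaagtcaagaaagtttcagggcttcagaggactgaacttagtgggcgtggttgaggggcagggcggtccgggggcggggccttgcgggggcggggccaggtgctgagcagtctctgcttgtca
Nr1d2, chr14:18239107-18239356, minus strand: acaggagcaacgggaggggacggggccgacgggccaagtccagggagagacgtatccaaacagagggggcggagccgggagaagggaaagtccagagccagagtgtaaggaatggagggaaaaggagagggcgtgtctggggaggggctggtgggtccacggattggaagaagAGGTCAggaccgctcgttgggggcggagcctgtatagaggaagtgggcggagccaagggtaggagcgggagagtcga
Rora, chr9:68653536-68653785, plus strand: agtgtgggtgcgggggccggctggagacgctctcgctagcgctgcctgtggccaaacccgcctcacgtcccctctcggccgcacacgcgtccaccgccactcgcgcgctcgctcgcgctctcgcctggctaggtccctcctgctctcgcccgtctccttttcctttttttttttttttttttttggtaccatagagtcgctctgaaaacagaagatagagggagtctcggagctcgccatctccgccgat
The half-site occurred at position -77 of the Nr1d2 window, counted from the start of transcription, and not in the windows of Vdr and Rora. Of 32851 promoters of this length, 14% held AGGTCA. Among 17 promoters of the listed genes with an entry, which include Nr1h2 and lack Nr3c1, 4 held it, and these belonged to Pparg, Rarg and Rxra. The longer ROR element TAGGTCA, which contains AGGTCA, occurred in 2.23% of all promoters and in 0 of the 17. The glucocorticoid receptor half-site AGAACA occurred in 16.1% of all promoters and in 0 of the 17. These matches describe letters in a short window and were not set against binding.

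Each comparison was fitted with limma over all 45037 probe sets, with Benjamini-Hochberg adjustment, and a probe set was called at an adjusted p under 0.05. Of the 27 receptor probe sets, 0 were called in any comparison. For RORγt-deficient against wildtype cells in DMSO the array-wide share called was 0.611%, and the lowest adjusted p of a receptor probe set was 0.113, for Rora 1458129_at. For digoxin against DMSO in wildtype cells that share was 0.0622%, and the lowest adjusted p of a receptor was 0.424, for Vdr 1418176_at. It was 0.00222% for digoxin in RORγt-deficient cells, 0.00222% for RORγt deficiency under digoxin and 0% for the difference between the digoxin effects, where every receptor had an adjusted p of 1. In the first comparison the smallest difference called anywhere on the array was 0.55 in size, and in the second it was 0.78. The receptors' differences reached 0.52 and 0.48 in size in these 2 comparisons, with standard errors of 0.11 to 0.21.

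At an unadjusted p under 0.05 the receptors can be read against the array. In the comparison of RORγt-deficient with wildtype cells in DMSO, 6 of 27 probe sets (22.2%) passed, 4 higher and 2 lower, where 9.06% of all probe sets did. For digoxin in wildtype cells 4 of 27 (14.8%) passed, against 6.26% of all. For digoxin in RORγt-deficient cells 2 of 27 (7.41%) passed, against 3.41%. RORγt deficiency under digoxin gave 1 of 27 (3.7%), against 4.77%, and the difference between the digoxin effects gave 1 of 27 (3.7%), against 2.78%. Several of these probe sets belong to the same gene, so these counts hold few independent genes: the 6 came from Rora, Vdr, Rara and Nr3c1. The median receptor difference was 0.10 for RORγt deficiency in DMSO, where that of all probe sets was 0.01. The first 2 comparisons share the wildtype DMSO arrays, so a deviation of those arrays enters both alike.

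**Figure D1:**
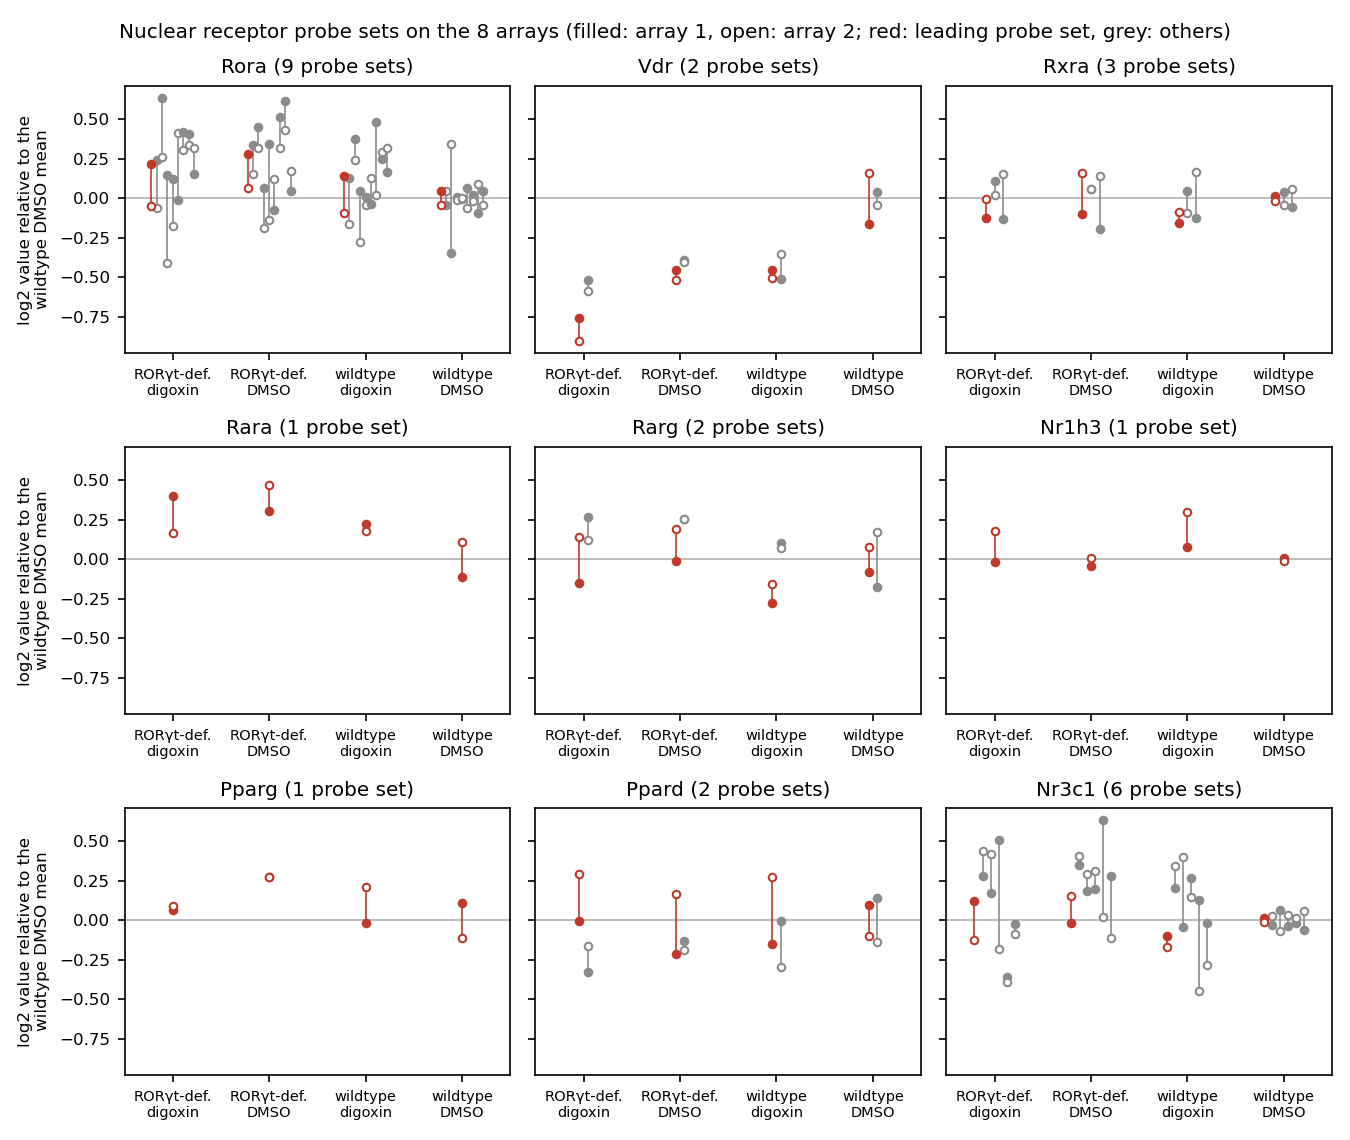
Log2 values of every probe set of the 9 measured receptor genes on the 8 arrays, relative to the wildtype DMSO mean (filled points, array 1; open points, array 2; red, leading probe set; grey, other probe sets; a line joins the arrays of a group). Both Vdr probe sets lie below both wildtype DMSO arrays on all 6 other arrays, between -0.35 and -0.90, while the Rora and Nr3c1 probe sets spread to both sides of 0.

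Vdr, the vitamin D receptor, had the lowest group means of the set, in both of its probe sets and in all 3 groups other than wildtype DMSO. Its leading probe set, 1418175_at, had values of -0.76 and -0.90 in RORγt-deficient digoxin cells and of -0.45 and -0.52 in RORγt-deficient DMSO cells. It had -0.45 and -0.50 in wildtype digoxin cells and -0.16 and 0.16 in wildtype DMSO cells. No array of the other 3 groups reached either wildtype DMSO array, and RORγt-deficient digoxin cells were lowest. In order of level, the means were -0.83 ± 0.10, -0.48 ± 0.05, -0.48 ± 0.04 and 0.00 ± 0.23 (SD, n = 2 each) in the same sequence of groups, and the neighbours RORγt-deficient DMSO and wildtype digoxin did not differ beyond their spread.

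The leading Vdr probe set was 1.40-fold lower in RORγt-deficient than in wildtype cells in DMSO, a log2 difference of -0.48 ± 0.13 (SE). Its 95% confidence interval ran from -0.77 to -0.20 and it was not called (limma, adjusted p = 0.202). Digoxin in wildtype cells gave -0.48, with an interval of -0.77 to -0.19 (adjusted p = 0.494). Digoxin in RORγt-deficient cells gave -0.34 (adjusted p = 1), and RORγt deficiency under digoxin gave -0.35 (adjusted p = 1). All 4 differences were thus below 0 with intervals that left out 0, and none passed the adjustment over the whole array. The digoxin effect in RORγt-deficient cells differed from that in wildtype cells by 0.13 ± 0.18, with an interval of -0.27 to 0.54. That interval holds 0 and also differences as large as the digoxin effect in wildtype cells.

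The other Vdr probe set, 1418176_at, had values of -0.51 and -0.59 in RORγt-deficient digoxin cells and of -0.39 and -0.41 in RORγt-deficient DMSO cells. It had -0.51 and -0.35 in wildtype digoxin cells and 0.04 and -0.04 in wildtype DMSO cells. The groups did not overlap wildtype DMSO here either. The differences were -0.40 ± 0.11 for RORγt deficiency in DMSO (adjusted p = 0.222) and -0.43 ± 0.11 for digoxin in wildtype cells (adjusted p = 0.424). Within the other pairs of groups this probe set showed less: -0.15 for digoxin in RORγt-deficient cells and -0.12 for RORγt deficiency under digoxin (adjusted p = 1 for both). Across the 8 arrays the Vdr probe sets had a Pearson r of 0.883, a description of 2 probe sets read on the same arrays.

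Vdr was the only gene of the set with every probe set lower than both wildtype DMSO arrays on all 6 other arrays. Of all 45037 probe sets, 7.76% lay below both wildtype DMSO arrays in this way and 7.47% above both. Besides the 2 of Vdr, 5 of the 27 receptor probe sets stood above both: Rara 1450180_a_at, Nr3c1 1421866_at and Rora 1455165_at, 1458129_at and 1458145_at. With the genotypes compared over both treatments, 4 arrays against 4, a contrast chosen after seeing the data, the leading Vdr probe set differed by -0.42 ± 0.09 (adjusted p = 0.0799). It remained uncalled while 0.944% of all probe sets were called. Digoxin compared over both genotypes gave -0.41 ± 0.09 (adjusted p = 0.375), with 0.0355% called. In these contrasts 6 of 27 receptor probe sets had an unadjusted p under 0.05 for genotype, against 10.7% of all, and 4 of 27 for digoxin, against 7.37% of all.

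The genes whose pattern over the 8 arrays was most like that of Vdr were the uncharacterised 9330179D12Rik (r = 0.967), Ccr6 (r = 0.964) and Gap43 (r = 0.963), among genes with an SD of at least 0.2. Ccr6 encodes the chemokine receptor that marks Th17 cells. Its values were -0.96 and -1.27 in RORγt-deficient digoxin cells and -0.57 and -0.85 in RORγt-deficient DMSO cells. They were -0.74 and -0.96 in wildtype digoxin cells and -0.14 and 0.14 in wildtype DMSO cells. Both Ccr6 and Vdr thus had their lowest mean in RORγt-deficient digoxin cells and their highest in wildtype DMSO cells. Gap43, a growth-associated protein of neurons, fell by 1.11 with RORγt deficiency in DMSO (adjusted p = 0.00769) and fell by 1.14 with digoxin in wildtype cells (adjusted p = 0.0133). The Gap43 calls were lost without some of the arrays: in 3 of 8 fits for RORγt deficiency (both wildtype DMSO arrays and array 2 of RORγt-deficient DMSO) and in 5 of 8 for digoxin (both wildtype DMSO arrays, both RORγt-deficient digoxin arrays and array 2 of wildtype digoxin), with adjusted p up to 0.107 and 0.171. With the compared groups alone the digoxin call was lost too (adjusted p = 0.0744). These genes were picked for the highest r among many, so the r values carry no test.

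**Figure D2:**
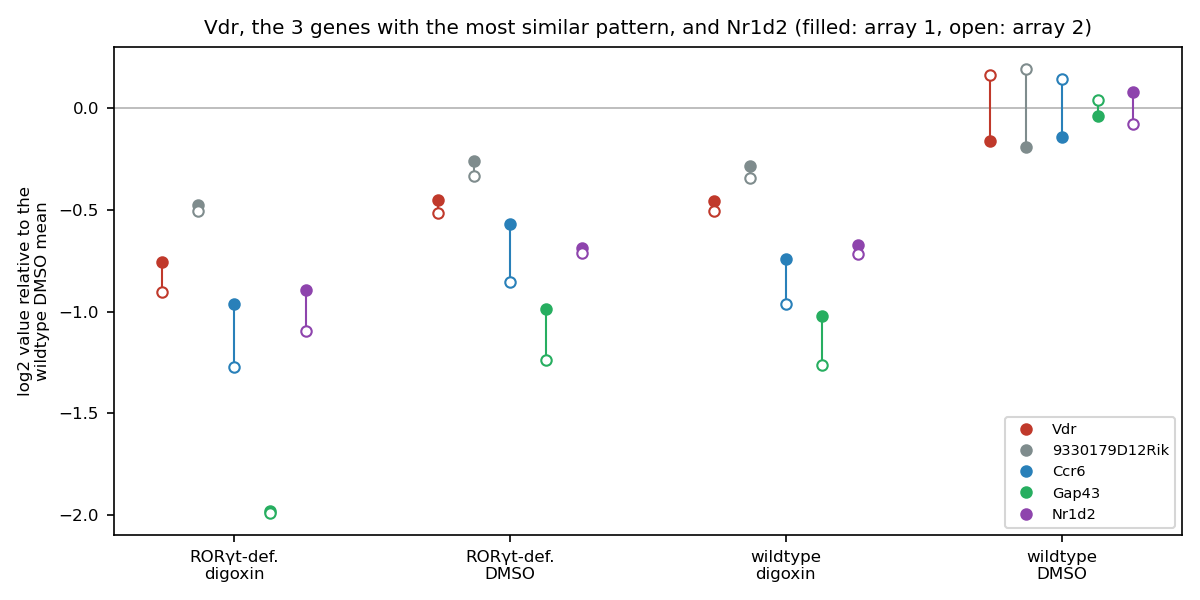
Log2 values relative to the wildtype DMSO mean for Vdr, the 3 genes with the highest Pearson r to it, and Nr1d2, in the 4 groups (filled points, array 1; open points, array 2). All 5 genes have their lowest group mean in RORγt-deficient digoxin cells, where Vdr reached -0.90 and Gap43 -1.99, and both middle groups lie at similar values.

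Of 6 genes listed for vitamin D action and metabolism, 5 were measured and 0 were called in any of the 5 comparisons, nor did any have an unadjusted p under 0.05. Their median difference was -0.04 for RORγt deficiency in DMSO and -0.03 for digoxin in wildtype cells, with all-gene medians of 0.00 and 0.01. The differences ran from -0.18 to 0.25 in the first of these comparisons and from -0.13 to 0.21 in the second. Cyp24a1, the vitamin D catabolic enzyme and a classic target of the receptor, differed by -0.04 ± 0.14 and -0.03 ± 0.14 in these comparisons. Cyp27b1, which makes the active hormone, differed by -0.15 ± 0.12 and -0.13 ± 0.12.

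Rora had 9 probe sets, and they did not give 1 answer. Their differences between RORγt-deficient and wildtype cells in DMSO ran from -0.06 to 0.52 with a median of 0.17, and 8 of 9 were above 0. Digoxin in wildtype cells gave -0.11 to 0.31, with 6 of 9 above 0. Digoxin in RORγt-deficient cells gave -0.15 to 0.18, with 3 of 9 above 0, and RORγt deficiency under digoxin gave -0.02 to 0.15. None was called, and the lowest value in these 4 comparisons was -0.15. By the rule used here, opposite signs with either over 0.3 in size, the probe sets disagreed for RORγt deficiency in DMSO and for digoxin in wildtype cells. They also disagreed for the difference between the digoxin effects, which ran from -0.43 to 0.13 with 2 of 9 above 0.

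The leading Rora probe set, 1424034_at, in the highest level range, had values of 0.22 and -0.05 in RORγt-deficient digoxin cells and of 0.28 and 0.07 in RORγt-deficient DMSO cells. It had 0.14 and -0.09 in wildtype digoxin cells and 0.04 and -0.04 in wildtype DMSO cells. Digoxin groups overlapped wildtype DMSO, and RORγt-deficient DMSO lay just above it. The difference was 0.17 ± 0.14 for RORγt deficiency in DMSO, with an interval of -0.14 to 0.48 (adjusted p = 0.769). For digoxin in wildtype cells it was 0.02 ± 0.14, with an interval of -0.28 to 0.33. For this probe set alone, the interval leaves out a fall larger than 0.28 with digoxin in wildtype cells and allows one smaller than that. Other Rora probe sets in the highest range had intervals beginning at -0.52 (1436325_at), -0.38 (1436326_at), -0.34 (1420583_a_at) and -0.09 (1455165_at) in that comparison.

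The probe set of Rora with the lowest p was 1458129_at, in the 4 to 8 range. Its values were 0.41 and 0.34 in RORγt-deficient digoxin cells and 0.62 and 0.43 in RORγt-deficient DMSO cells. They were 0.25 and 0.30 in wildtype digoxin cells and -0.09 and 0.09 in wildtype DMSO cells. Every array of the other groups lay above wildtype DMSO, with RORγt-deficient DMSO highest. With RORγt deficiency in DMSO the difference was 0.52 ± 0.12 (adjusted p = 0.113), and digoxin in wildtype cells gave 0.27 ± 0.12 (adjusted p = 0.782). Digoxin in RORγt-deficient cells gave -0.15, and the difference between the digoxin effects was -0.43 ± 0.17 (adjusted p = 1).

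A second probe set, 1455165_at, in the highest range, had values of 0.42 and 0.31 in RORγt-deficient digoxin cells and of 0.52 and 0.32 in RORγt-deficient DMSO cells. It had 0.48 and 0.02 in wildtype digoxin cells and 0.02 and -0.02 in wildtype DMSO cells. The genotypes in DMSO differed by 0.42 ± 0.15 (adjusted p = 0.423). The wildtype digoxin arrays of this probe set differed from each other by more than the groups did. The other 6 Rora probe sets and the leading one had no unadjusted p under 0.05 in any of the 5 comparisons. Over the 8 arrays the 36 pairs of Rora probe sets had Pearson r between -0.892 and 0.923 with a median of 0.368.

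Much of the spread of Rora lay between the arrays of a group. For the 5 Rora probe sets in the highest level range, array 1 was above array 2 in 5 of 5 in RORγt-deficient digoxin cells (by 0.11 to 0.55), in RORγt-deficient DMSO cells (by 0.18 to 0.48) and in wildtype digoxin cells (by 0.06 to 0.46). In wildtype DMSO cells it was above in 3 of 5. Over all 9 probe sets the counts were 7, 7, 6 and 5 in that sequence of groups. Array 1 was also the one with the lower score on the first principal component in the same 3 groups, as given above, and the part of this in the Rora values was not tested. The genes most like the leading Rora probe set over the 8 arrays were Gabarapl1 (r = 0.886), Zfp948 (r = 0.885) and Tnfsf11 (r = 0.875).

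**Figure D3:**
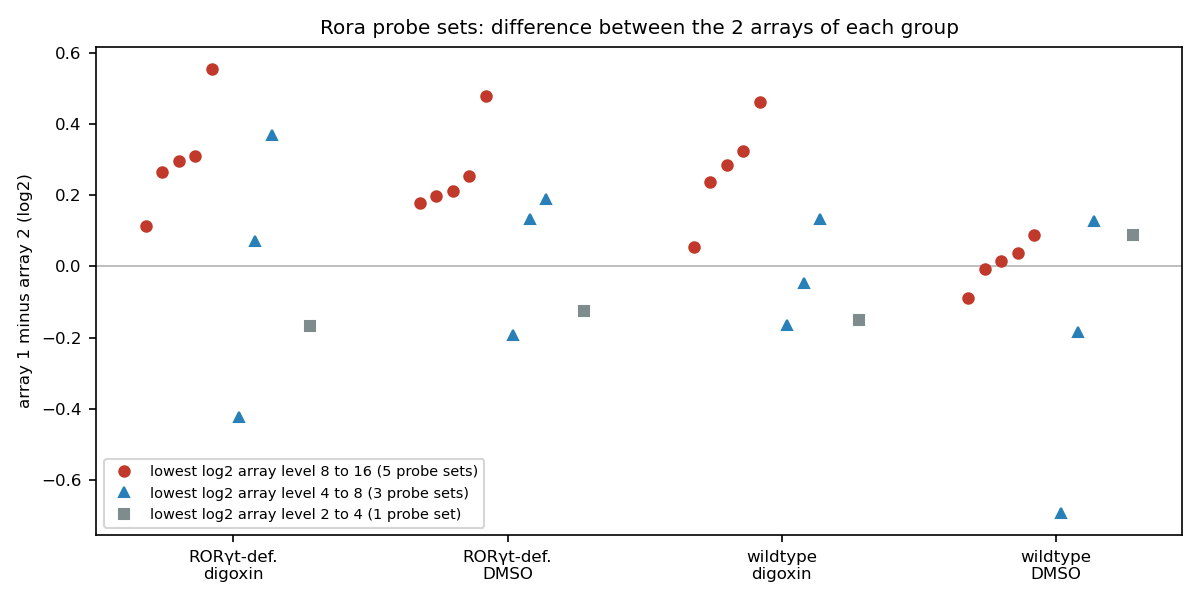
Difference between array 1 and array 2 (log2) within each group for the 9 Rora probe sets, by the range of their lowest array level (circles, 8 to 16; triangles, 4 to 8; square, 2 to 4). All 5 probe sets of the highest range lie above 0 in 3 groups, up to 0.55, and within 0.09 of 0 in wildtype DMSO cells.

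Of 10 genes listed as targets of ROR proteins, all were measured, and 2 fell with RORγt deficiency in DMSO, Il17a and Nr1d2. Il17a, the defining Th17 cytokine, fell in each of the 4 two-group comparisons. For RORγt deficiency under digoxin that call was lost when any wildtype array or RORγt-deficient digoxin array was left out (6 of 8 fits, adjusted p up to 0.264) and with the compared groups alone (adjusted p = 0.0685). For digoxin in RORγt-deficient cells it was lost without array 2 of RORγt-deficient digoxin (adjusted p = 0.0679). Its values were -3.87 and -4.12 in RORγt-deficient digoxin cells, -2.01 and -2.21 in RORγt-deficient DMSO cells, -2.35 and -2.44 in wildtype digoxin cells, and -0.02 and 0.02 in wildtype DMSO cells. The list's median difference was -0.305 for RORγt deficiency in DMSO and -0.37 for digoxin in wildtype cells. Ccr6 differed by -0.71 (adjusted p = 0.116) and -0.85 (adjusted p = 0.157). The leading Rora probe set gave 0.17 and 0.02 in the same comparisons. Elsewhere the list's median was nearer 0: -0.157 for digoxin in RORγt-deficient cells, with genes up to 0.332. For RORγt deficiency under digoxin it was -0.102, with genes up to 0.36. For the difference between the digoxin effects the 10 genes ran from 0.0355 to 0.549, with a median of 0.41. There 4 of 10 had an unadjusted p under 0.05 in limma, against 2.78% of all probe sets, and 0 were called.

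Rxra, the common partner, had an SD of 0.10 over the 8 arrays in its leading probe set, the smallest among the leading probe sets of the 9 genes. That probe set, 1454773_at, had values of -0.12 and -0.00 in RORγt-deficient digoxin cells and of -0.10 and 0.16 in RORγt-deficient DMSO cells. It had -0.16 and -0.09 in wildtype digoxin cells and 0.02 and -0.02 in wildtype DMSO cells. Wildtype digoxin cells lay just below wildtype DMSO cells, and both RORγt-deficient groups overlapped them. RORγt deficiency in DMSO gave 0.03 ± 0.12, with an interval of -0.24 to 0.30, and digoxin in wildtype cells gave -0.12 ± 0.12, with an interval of -0.39 to 0.14. All 3 Rxra probe sets stayed between -0.12 and 0.09 in the 4 two-group comparisons. These intervals leave out changes above about 0.4 and do not show that Rxra was unaltered.

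Rara, the retinoic acid receptor α, was represented by 1 probe set, 1450180_a_at. Its values were 0.40 and 0.17 in RORγt-deficient digoxin cells and 0.31 and 0.47 in RORγt-deficient DMSO cells. They were 0.22 and 0.18 in wildtype digoxin cells and -0.11 and 0.11 in wildtype DMSO cells. All 6 other arrays lay above wildtype DMSO. Between the genotypes in DMSO the difference was 0.39 ± 0.13, with an interval of 0.10 to 0.68 (adjusted p = 0.351), and digoxin in wildtype cells gave 0.20 ± 0.13 (adjusted p = 0.827). Under digoxin the genotypes differed by 0.08 ± 0.13.

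Rarg, the retinoic acid receptor γ, gave 0.09 ± 0.14 for RORγt deficiency in DMSO and -0.22 ± 0.14 for digoxin in wildtype cells in its leading probe set, 1419415_a_at. The other, 1419416_a_at, gave 0.26 ± 0.13 and 0.09 ± 0.13. Neither passed an unadjusted p of 0.05 in any comparison. Of the 15 listed genes of retinoic acid metabolism and response, all 15 were measured and 0 were called. Their median was 0.10 for RORγt deficiency in DMSO and 0.12 for digoxin in wildtype cells. At an unadjusted p under 0.05 in limma, 1 was higher and 1 lower in the first of these comparisons. In the second, 4 were higher and 1 lower. The shares of all probe sets passing were 9.06% and 6.26%. Rdh10, which oxidises retinol, differed by 0.51 ± 0.19 and 0.53 ± 0.19 (adjusted p = 0.447 and 0.717). Aldh1a2, which makes retinoic acid, differed by -0.39 ± 0.12 and -0.28 ± 0.12 (adjusted p = 0.268 and 0.766).

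Nr1h3, the oxysterol receptor LXRα, had values of -0.02 and 0.18 in RORγt-deficient digoxin cells and of -0.04 and 0.01 in RORγt-deficient DMSO cells. It had 0.08 and 0.30 in wildtype digoxin cells and 0.01 and -0.01 in wildtype DMSO cells. The genotype difference in DMSO was -0.02 ± 0.12, and digoxin in wildtype cells gave 0.19 ± 0.12 (adjusted p = 0.829). Of 11 listed LXR target and cholesterol genes, 10 were measured and 0 were called. Their median was 0.08 for RORγt deficiency in DMSO and 0.01 for digoxin in wildtype cells. Abcg1, a cholesterol exporter, differed by 0.18 ± 0.13 and -0.06 ± 0.13.

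Pparg, the adipogenic PPARγ, had values of 0.06 and 0.09 in RORγt-deficient digoxin cells and of 0.27 and 0.27 in RORγt-deficient DMSO cells. It had -0.01 and 0.21 in wildtype digoxin cells and 0.11 and -0.11 in wildtype DMSO cells. The RORγt-deficient DMSO arrays were the highest. In DMSO the genotypes differed by 0.27 ± 0.12 (adjusted p = 0.553), and digoxin in RORγt-deficient cells gave -0.19 ± 0.12. Ppard, a regulator of fatty acid oxidation, had differences between -0.16 and 0.17 over its 2 probe sets in the 4 two-group comparisons. Of 14 listed PPAR target genes 12 were measured and 0 were called. Acadl, an enzyme of fatty acid oxidation, differed by 0.28 ± 0.10 for RORγt deficiency in DMSO and 0.32 ± 0.10 for digoxin in wildtype cells (adjusted p = 0.419 and 0.663). Plin2, a lipid droplet protein, differed by -0.24 ± 0.11 and -0.28 ± 0.11.

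Nr3c1, the glucocorticoid receptor, had 6 probe sets, all above 0 for RORγt deficiency in DMSO, from 0.07 to 0.38. The leading probe set, 1421867_at, the only one in the highest level range, gave the smallest of these, 0.07 ± 0.12. The largest was that of 1421866_at, in the 4 to 8 range. Its values were 0.28 and 0.44 in RORγt-deficient digoxin cells and 0.35 and 0.40 in RORγt-deficient DMSO cells. They were 0.20 and 0.34 in wildtype digoxin cells and -0.03 and 0.03 in wildtype DMSO cells. All 6 arrays of the other groups lay above wildtype DMSO. RORγt deficiency in DMSO gave 0.38 ± 0.11 (adjusted p = 0.274) and digoxin in wildtype cells 0.27 ± 0.11 (adjusted p = 0.766).

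A further Nr3c1 probe set, 1457635_s_at, had values of -0.36 and -0.39 in RORγt-deficient digoxin cells, against 0.63 and 0.02 in RORγt-deficient DMSO cells. It had 0.13 and -0.45 in wildtype digoxin cells and -0.02 and 0.02 in wildtype DMSO cells. Digoxin in RORγt-deficient cells gave -0.70 ± 0.21 (adjusted p = 1). It ran from -1.005 to -0.40 when either RORγt-deficient DMSO array was left out, so its size rests on which of these arrays is kept. The other 5 Nr3c1 probe sets lay between -0.14 and 0.06 in that comparison, and 1431378_at, at 0.06, disagreed with it in sign. Of 13 listed glucocorticoid-responsive and receptor chaperone genes, 12 were measured and 0 were called, with medians of -0.06 for RORγt deficiency in DMSO and -0.08 for digoxin in wildtype cells. Per1, a clock gene induced by glucocorticoids, differed by -0.39 ± 0.15 and -0.44 ± 0.15 (adjusted p = 0.448 and 0.677). Hsd11b1, which regenerates active glucocorticoid, differed by 0.30 ± 0.11 for digoxin in wildtype cells (adjusted p = 0.727).

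**Figure D4:**
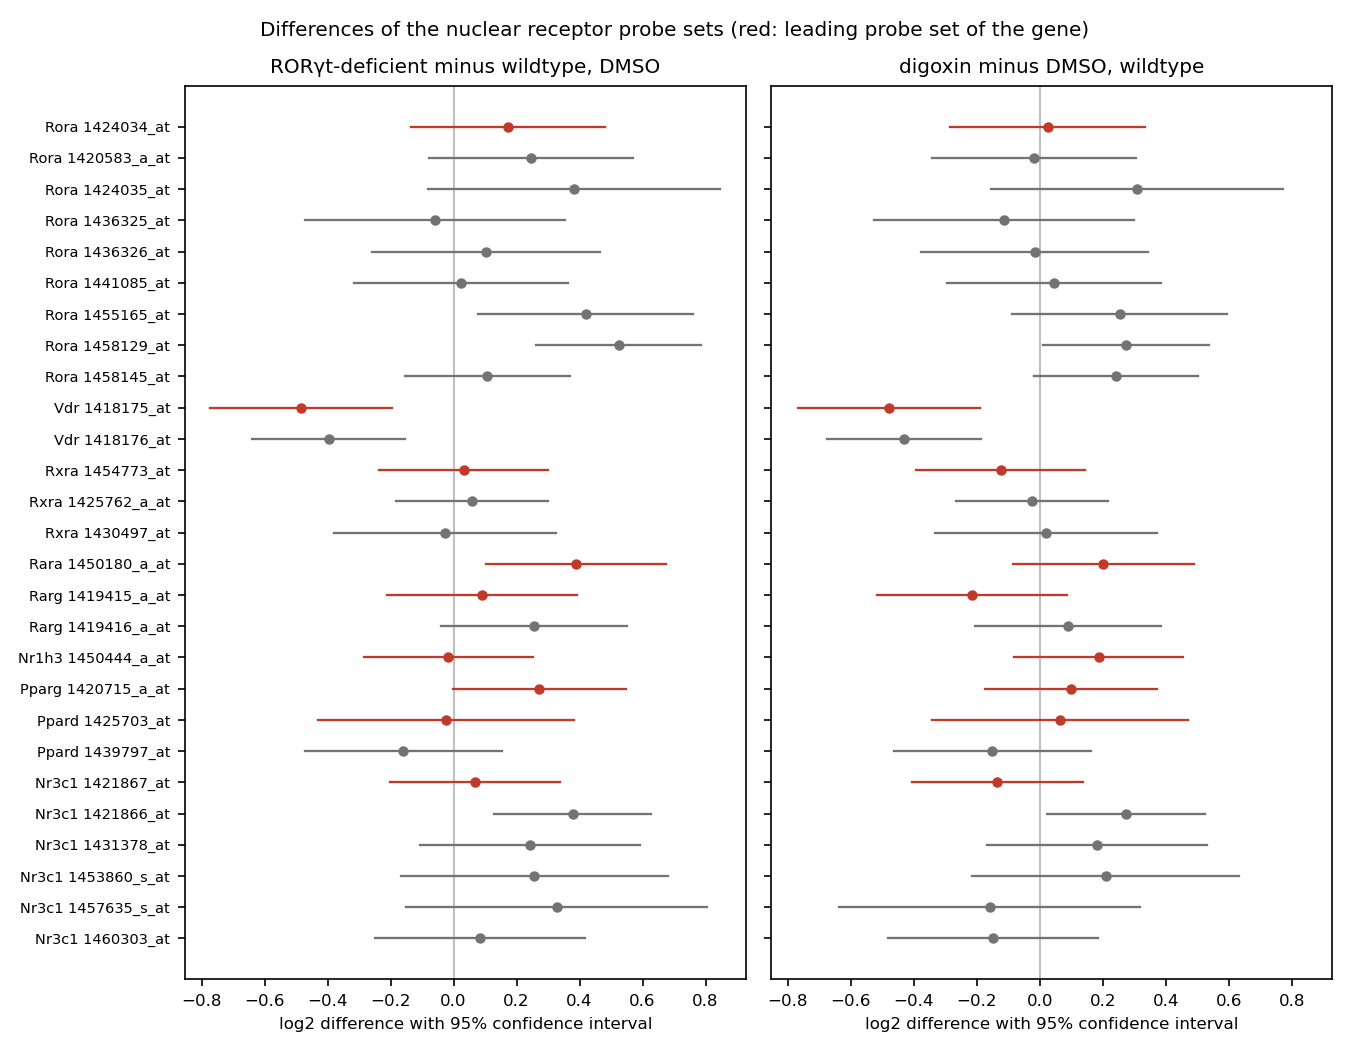
Log2 differences of the 27 receptor probe sets with 95% confidence intervals from limma, for RORγt-deficient minus wildtype cells in DMSO (left) and digoxin minus DMSO in wildtype cells (right), with the leading probe set of each gene in red. Both Vdr probe sets lie left of 0 in both panels, with intervals that leave out 0. On the left 20 of 27 points lie above 0, and of these 8 are Rora and 6 are Nr3c1 probe sets. Points of the same gene are not independent, and the leading probe sets of Rora and Nr3c1 lie at 0.17 and 0.07. The median of all probe sets on the array was 0.01 in that comparison. The panels share the wildtype DMSO arrays.

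Outside the set, 35 of 37 other nuclear receptors were measured, and 1 was called in 1 comparison. Nr1d2, which encodes the clock repressor REV-ERBβ, fell by 0.70 ± 0.12 with RORγt deficiency in DMSO (adjusted p = 0.0311). Its values were -0.89 and -1.10 in RORγt-deficient digoxin cells and -0.69 and -0.71 in RORγt-deficient DMSO cells. They were -0.67 and -0.71 in wildtype digoxin cells and 0.08 and -0.08 in wildtype DMSO cells. All 3 other groups lay below wildtype DMSO, with RORγt-deficient digoxin cells lowest, the order seen for Vdr. Digoxin in wildtype cells gave -0.69 ± 0.12 (adjusted p = 0.0917). The Nr1d2 call was lost when any wildtype DMSO, RORγt-deficient DMSO or RORγt-deficient digoxin array was left out (6 of 8 fits, adjusted p up to 0.264, differences -0.78 to -0.62) and with the compared groups alone (adjusted p = 0.0775). Nr1d1, encoding REV-ERBα, differed by -0.40 ± 0.13 (adjusted p = 0.324) and -0.38 ± 0.13 (adjusted p = 0.679) in these comparisons. REV-ERB proteins compete with ROR proteins for the same DNA element and are themselves known ROR targets.

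The remaining receptors showed smaller differences. Esr1, estrogen receptor α, differed by 0.26 ± 0.11 with RORγt deficiency in DMSO (adjusted p = 0.514). Nr4a1, an early gene of T cell receptor signalling, differed by -0.33 ± 0.12 with digoxin in wildtype cells (adjusted p = 0.708). Thra, a thyroid hormone receptor, differed by -0.27 ± 0.11 (adjusted p = 0.766). The median of the 35 was 0.02 for RORγt deficiency in DMSO and 0.01 for digoxin in wildtype cells, against all-gene medians of 0.00 and 0.01.

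Of 17 listed coregulators, which carry out activation or repression for these receptors, 15 were measured and 0 were called. Gps2, a subunit of the NCoR repressor complex, differed by 0.38 ± 0.13 with RORγt deficiency in DMSO (adjusted p = 0.364) and by 0.35 ± 0.13 under digoxin (adjusted p = 1). Ncoa6, a coactivator, differed by -0.39 ± 0.16 with digoxin in wildtype cells (adjusted p = 0.766). The median of the coregulators was -0.03 for RORγt deficiency in DMSO and -0.07 for digoxin in wildtype cells. On the 6 arrays other than wildtype DMSO the mean value of the 7 T cell markers lay between 0.15 and 0.26, and that of the 2 CD8 T cell markers between 0.05 and 0.24. It lay between 0.10 and 0.43 for the 3 natural killer cell markers, between 0.06 and 0.37 for the 3 B cell markers and between -0.04 and 0.23 for the 8 myeloid markers. At an unadjusted p under 0.05, 3 of the 7 T cell markers were higher with RORγt deficiency in DMSO, and 1 of the 8 myeloid markers was lower. The T cell markers differed by 0.05 to 0.43 there, with a median of 0.21 against 0.00 for all genes. For digoxin in wildtype cells 2 of 7 T cell, 2 of 3 natural killer cell, 1 of 3 B cell and 2 of 8 myeloid markers were higher. In all, 0 markers of any list were called. The part of these markers in the receptor values was not tested. In these bulk samples, fewer cells that express a receptor and less of its RNA per cell cannot be told apart.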

How the data were processed

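Total RNA of Th17-cultured mouse CD4 T cells in 4 groups of 2 was hybridised to 8 arrays. RMA is the summarisation named per the submitters' processing notes; the series' design text names GeneSpring GX 11.5. The authors deposited log2 values of 45101 probe sets, and in every row the values of both wildtype DMSO arrays added up to 0 within 1e-06; no source used here records that centring. Differences between groups are unaffected by it.

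Leaving out 64 controls, 45037 probe sets were tested. A probe set was named from the platform annotation where it had 1 symbol (34945 probe sets); 932 had several symbols and stayed unnamed, and 34741 matched a current RefSeq gene (GRCm38.p6). A gene was led by the probe set in the highest recovered level range, then by suffix and identifier. limma 3.58.1 in R 4.3.3 fitted 4 group means to all 8 arrays with 4 residual and 5.82 prior degrees of freedom; tests were two-sided, and values after ± are standard errors unless given as SD. The test was checked on simulated data. Precision is limited by the number of arrays.

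The members and gene lists were chosen with earlier results of these data known. Named were all members, up to 4 genes of each list by smallest p in a comparison, and the 3 genes with the highest Pearson r to Vdr and Rora among those with an SD of at least 0.2. Alternatives were the groups fitted, the probe sets kept, the centring, the choice of probe set, leaving out each array and the replicate number as a block; the contrasts averaged over treatment or genotype were added after seeing the data.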

Additional observations from a re-analysis of the deposited data

How the results depend on the processing

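The count of receptor probe sets called was 0 in all 66 recomputations, and the lowest adjusted p reached was 0.0799, for Vdr in the contrast averaged over treatment. Among these 66 the averaged contrasts were fitted with all arrays only. Of 1528 recomputed receptor values 119 changed sign, 103 of them when an array was left out. Of 192 recomputed from the 14 values with an unadjusted p under 0.05, 0 changed sign. Many of these fits could not change the sign of a difference between 2 groups. Leaving out an array of another group, the compared groups alone, the replicate block and fewer probe sets all leave that difference as it was. The 14 were also picked for differences large against their standard errors, so the sign counts do not measure stability. The leading Vdr difference ran from -0.65 to -0.32 for RORγt deficiency in DMSO and from -0.64 to -0.32 for digoxin in wildtype cells when 1 array was left out, the ends being set by the 2 wildtype DMSO arrays. The array-wide counts moved more. RORγt deficiency in DMSO (275 called) gave 81 with the compared groups alone and 425 averaged over treatment, and 21 to 318 without 1 array. Digoxin in wildtype cells (28) gave 15 with the compared groups alone, 5 without dim probe sets, 16 averaged over genotype, and 3 to 25 without 1 array. Digoxin in RORγt-deficient cells (1) gave 0 without dim probe sets and 0 to 1 without 1 array. RORγt deficiency under digoxin (1) gave 0 with the compared groups alone, 0 without dim probe sets and 0 to 1 without 1 array. The difference of the digoxin effects (0) gave 0 to 1 without 1 array. The averaged contrasts set 4 arrays against 4 and kept all arrays and probe sets, while the other fits held fewer arrays or probe sets. The cause of these moves was not tested. Replicate numbers were not taken to pair the arrays, because not every pair of groups correlated above 0.1: deviations of the arrays numbered 1 correlated at -0.134 to -0.238 between wildtype DMSO and the other groups, and at 0.304 to 0.456 among those groups. With the replicate block the counts were 308, 36, 1, 1 and 0 in the order above, and 0 receptor probe sets were called.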
